A study of Mus musculus with 12 samples.

Results

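The axon guidance ligands and receptors described here are the semaphorins, plexins, neuropilins, ephrins, Eph receptors, Slits, Robo receptors, netrins and netrin receptors. They were taken by gene symbol from the protein-coding rows of the deposited expression table, by a rule on symbols that uses no measured value, which gave 70 of 51912 rows. They were measured in neurons taken from the cortex of E17.5 embryos of C57BL/6J mice, the meninges having been removed, and grown in 15-cm dishes. Neurons received either the solvent DMSO or 1 µg/mL erinacine S, a compound of the mycelium of the mushroom Hericium erinaceus, a few hours after plating, and were kept for 16 h or 48 h. The 4 groups, solvent or compound at either time, had 3 libraries each, all from the same strain and age and with no genetic change named. The labels call these libraries independent repeats without naming litters, dishes or days, so a p-value reflects no more than library-to-library spread, possibly technical.

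Growing axons read these proteins as signposts. Secreted semaphorins bind neuropilins, which signal through plexins, while most membrane-bound semaphorins bind plexins directly. Ephrins are held in the membrane, ephrin-A by a lipid anchor and ephrin-B by a transmembrane segment, and they signal to Eph receptors on the neighbouring cell. Slits repel axons through Robo receptors, and netrin-1 attracts axons through Dcc and can repel them through Unc5 receptors. In the developing cortex these families take part in steering callosal, corticofugal and thalamocortical axons, in neuron migration and in shaping synapses.

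Levels are given in TPM, transcript abundance per length with every library brought to an equal total, so genes can be compared with each other. Differences are of log2(TPM + 1), a scale that shrinks changes of low genes, and were tested with limma over all 15623 genes whose mean reached 1 TPM. A gene was called at a Benjamini-Hochberg adjusted p under 0.05. Of the 70 guidance genes 63 entered this test. The others, Sema3d, Sema3g, Plxnb3, Epha1, Epha2, Robo4 and Ntn5, had means between 0.0033 and 0.789 TPM.

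The neuronal label was checked against marker genes. The summed level of 7 neuronal markers was 3620 to 4481 TPM in the 16 h libraries and 5449 to 5879 TPM in the 48 h libraries, and all 8 endothelial and pericyte markers had means under 1 TPM. Other cells were present: the summed level of 7 markers of radial glia and progenitors was 428.5 to 563.7 TPM at 16 h and that of 7 oligodendrocyte lineage markers was 59.6 to 108.4 TPM. One library, erinacine S 48 h replicate 1, stood apart. Its radial glia sum was 242.3 TPM where the other 5 libraries at 48 h had 715.3 to 790.3 TPM, its oligodendrocyte lineage sum 66.5 against 174.3 to 232.6 TPM, its astrocyte sum 46.3 against 93.3 to 115.3 TPM and its sum for dividing cells 38.5 against 118.2 to 128.2 TPM. Its sum for inhibitory neurons was 1659 TPM against 743.7 to 1190 TPM. Sst alone gave 1019 TPM of that sum. Gad1, Gad2, Dlx5 and Lhx6 were also highest in this library among those at 48 h, and Dlx1 was lowest. Of the 63 tested guidance genes, 15 (23.8%) lay more than 0.5 log2 units from the mean of the other 2 libraries of its group, as did 14.8% of all tested genes, against 0 to 7 guidance genes in each of the other libraries. For the guidance genes, the value without it is given too where leaving it out changed a call in erinacine S or against DMSO. The same holds where it moved a log2 difference, or a median of these, given below by over 1.5 times. Microglia moved with the treatment at 48 h: the summed level of 8 markers was 31.4, 28.1 and 22.3 TPM in DMSO 48 h and 1.60, 10.3 and 13.3 TPM in erinacine S 48 h, so all 3 treated libraries were lower.

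The guidance genes were expressed across a wide range, and 50 of the 70 had a mean of at least 10 TPM. The median over the 63 tested members was 40.4 TPM, against 27.4 TPM over all tested protein-coding genes. Efnb2, a transmembrane ephrin, had the highest mean, 227.3 TPM, with libraries between 206.4 and 244.0 TPM. It was followed by Plxna2 at 163.6 TPM, a receptor for Sema6 ligands, and by Neo1 at 144.8 TPM, a receptor for netrins and repulsive guidance molecules. Robo1 (132.8 TPM), Plxna3 (130.4 TPM) and Sema6c (128.4 TPM) came next, and the libraries of these 3 genes overlapped. The library ranges of Plxna2 and Neo1 overlapped too, from 125.8 to 186.0 TPM and from 116.9 to 176.7 TPM, whereas those of Efnb2 lay above both.

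**Figure D1:**
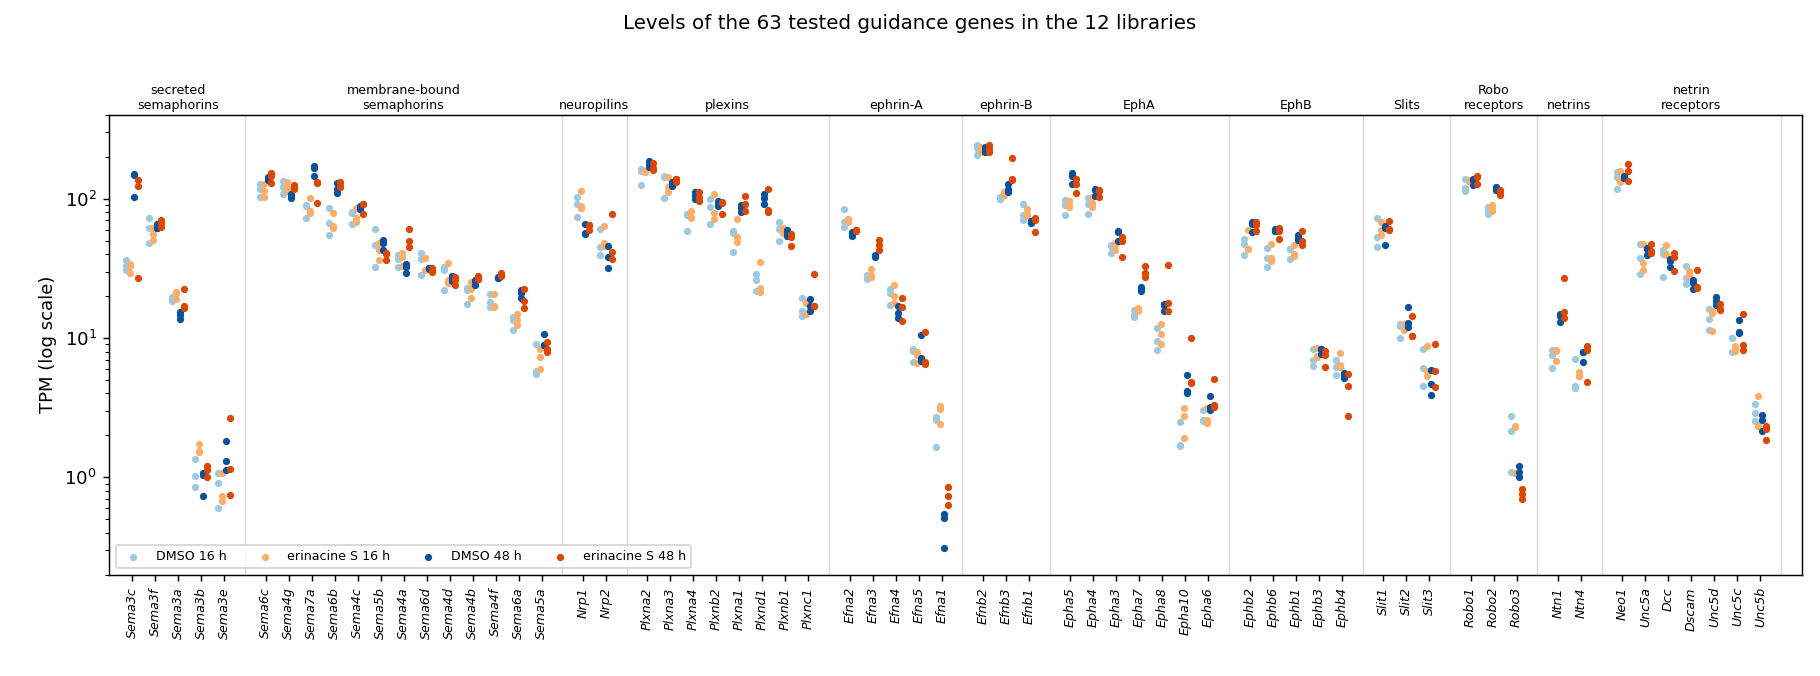
TPM (log scale) of the 63 tested guidance genes, grouped by role and ordered within each role by mean level; each point is 1 library, coloured by group. Efnb2 sits highest, between 206.4 and 244.0 TPM, and the lowest point, 0.309 TPM, is an Efna1 library of DMSO 48 h.

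Within most roles a few members were far more abundant than others. Among secreted semaphorins the order changed with time: at 16 h in DMSO Sema3f averaged 61.0 TPM and Sema3c 33.2 TPM, and at 48 h in DMSO 63.1 and 134.3 TPM. Sema3b and Sema3e were near 1 TPM over all libraries. Of the neuropilins, Nrp1, which binds Sema3a, averaged 77.0 TPM and Nrp2, which binds Sema3f, 47.9 TPM. Among ephrin-A ligands Efna2 led with 64.2 TPM, among EphA receptors Epha5 with 111.5 TPM and among EphB receptors Ephb2 with 55.7 TPM. The Slit ligands were ordered Slit1 (59.5 TPM), Slit2 (12.2 TPM) and Slit3 (6.04 TPM), and no library of Slit1 reached down to the highest Slit2 value, 16.8 TPM. Of their receptors, Robo2 averaged 98.99 TPM, while Robo3, known for its part in midline crossing, averaged 1.44 TPM. The netrins were low, Ntn1 at 11.9 TPM and Ntn4 at 6.40 TPM. Of the netrin receptors besides Neo1, Unc5a averaged 40.4 TPM, Dcc 37.7 TPM, the adhesion molecule Dscam 26.8 TPM, Unc5d 15.7 TPM, Unc5c 10.03 TPM and Unc5b 2.61 TPM.

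Most calls came with time in culture. After subtracting group means, same-numbered 16 h and 48 h libraries correlated at -0.0374, -0.182 and -0.0103 in DMSO. In erinacine S the values were -0.11, 0.0267 and -0.18. The labels do not say whether both times came from the same preparations. If they did not, time and preparation cannot be told apart. Between 16 h and 48 h in DMSO, 26 of the 63 tested members changed, 22 higher and 4 lower, with a median log2 difference over the 63 of 0.20. Over all tested genes 32.7% were called, 16.1% as higher and 16.6% as lower, and the median was -0.03. In erinacine S 24 members changed, 20 higher and 4 lower, against 30.6% of all tested genes, 15.1% higher and 15.5% lower. The median over the 63 was 0.22, and 0.14 without erinacine S 48 h replicate 1. Groups did not overlap for 34 members in DMSO (54.0%, against 50.5% of all tested genes) and for 30 in erinacine S (47.6%, against 44.9%). The comparisons in DMSO and in erinacine S use different libraries but share an estimate of the spread. Their 16 h libraries of equal number also deviated together, at correlations of 0.48, 0.185 and 0.51 after subtracting group means. Calls in both are therefore not independent. Of the members, 20 were called in both, 18 higher and 2 lower, which is 76.9% of the DMSO calls and 83.3% of the erinacine S calls; over all tested genes the shares were 72.0% and 76.9%. Without erinacine S 48 h replicate 1, 23 were called in both, 20 higher and 3 lower. In erinacine S Sema3c, Sema3a and Ntn4 then gained and Ephb1, Ephb4 and Robo3 lost a call. Through the shared spread the DMSO calls moved too, and Efnb3, Ntn4, Efna4, Epha3 and Unc5c gained a call there. The 23 were 74.2% of those DMSO calls and 95.8% of the erinacine S calls, against 57.6% and 86.4% over all tested genes. The DMSO count was 17 without DMSO 48 h replicate 1, when 21.8% of all genes were called. With no filter on low values the counts were 16 and 12, against 7.27% and 6.65% of all 51912 rows. These are bulk cultures, in which fewer cells of a type and less RNA per cell cannot be told apart. The radial glia and oligodendrocyte lineage sums were also higher at 48 h than at 16 h in every library but erinacine S 48 h replicate 1. The radial glia markers did not move together, however. In DMSO the log2 difference was 1.56 for Fabp7, 0.66 for Hes5 and 0.23 for Nes. It was -1.76 for Eomes, -0.51 for Pax6, -0.15 for Vim and -0.08 for Sox2. The part of these cell types in the counts was not tested.

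**Figure D2:**
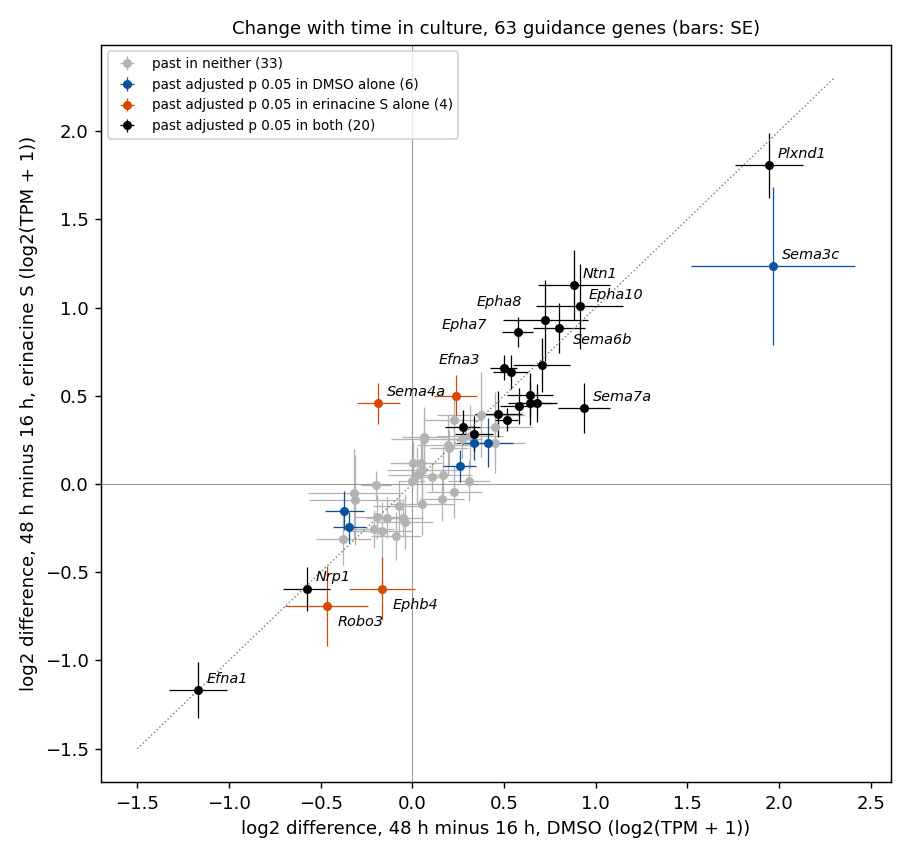
Log2 difference (48 h minus 16 h, on log2(TPM + 1)) in DMSO on the horizontal axis and in erinacine S on the vertical axis for the 63 tested guidance genes; bars are standard errors, colours mark which comparison passed, and the dotted line marks equal values. Plxnd1 lies at the upper right, Efna1 at the lower left, and 20 genes passed in both.

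Promoters of 4 genes that rose in both DMSO and erinacine S are shown, to give the sequence context of members that moved together. Each is the 200 bases directly before the gene's 5' end in the deposited table, 5' to 3' on the gene's strand, from RefSeq on GRCm38.p6, with GC boxes (GGGCGG or its reverse complement CCGCCC) in capitals.
Plxnd1, chr6:115995006-115995205, minus strand: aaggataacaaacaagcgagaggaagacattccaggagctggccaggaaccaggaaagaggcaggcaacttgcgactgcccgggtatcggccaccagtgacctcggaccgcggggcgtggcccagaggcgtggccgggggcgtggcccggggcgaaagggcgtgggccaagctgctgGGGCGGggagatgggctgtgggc
Epha7, chr4:28812931-28813130, plus strand: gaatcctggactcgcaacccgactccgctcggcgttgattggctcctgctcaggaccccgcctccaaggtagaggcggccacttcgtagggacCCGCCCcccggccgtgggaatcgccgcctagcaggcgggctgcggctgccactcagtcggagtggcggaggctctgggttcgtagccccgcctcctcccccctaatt
Efna3, chr3:89322966-89323165, minus strand: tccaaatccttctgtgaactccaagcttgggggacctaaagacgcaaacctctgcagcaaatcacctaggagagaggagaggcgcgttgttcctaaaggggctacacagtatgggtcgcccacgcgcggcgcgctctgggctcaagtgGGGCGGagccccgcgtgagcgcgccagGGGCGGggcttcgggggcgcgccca
Robo2, chr16:74411826-74412025, minus strand: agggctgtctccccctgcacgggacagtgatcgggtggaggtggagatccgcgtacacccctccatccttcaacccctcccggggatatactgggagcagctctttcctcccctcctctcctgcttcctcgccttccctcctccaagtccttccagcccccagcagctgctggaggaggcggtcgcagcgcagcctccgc
These windows were 65% to 69% G or C. The Efna3 window holds 2 GC boxes, those of Plxnd1 and Epha7 hold 1 each and that of Robo2 holds 0. RefSeq windows of 250 bases before a start were matched for 60 of the 70 members. Of these 43 (71.7%) had a GC box on either strand, against 61.1% of 9804 tested protein-coding genes and 32.7% of all 32851 windows. The picks differ: a member's window was the one nearest its 5' end, a tested gene's the first listed. The other motifs searched were rarer: the E-box CAGCTG was in 18.3% of the 60 and 11.2% of the tested genes, the E-box CACGTG in 3.33% and 8.5%, the CRE TGACGTCA in 1.67% and 2.92%, and the AP-1 motif TGANTCA in 1.67% and 3.71%. Each of these motifs reads the same on both strands. The 60 include members that did not enter the test: Ntn5, Plxnb3, Robo4 and Sema3g were among those with CAGCTG, and Epha2 alone had the CRE. A match is a run of letters and does not show that a protein binds there.

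Of 5 tested secreted semaphorins, 1 rose and 1 fell in DMSO, and of 13 membrane-bound semaphorins 5 rose and 0 fell. In erinacine S 0 of the 5 secreted and 6 of the 13 membrane-bound semaphorins changed, all 6 higher. Without erinacine S 48 h replicate 1 Sema3c rose and Sema3a fell in erinacine S as well. Sema3c, a secreted ligand that can attract cortical axons, read 36.2, 32.8 and 30.7 TPM in DMSO 16 h and 148.8, 150.4 and 103.6 TPM in DMSO 48 h. The groups did not overlap, and the log2 difference was 1.97 ± 0.45 (SE, limma adjusted p = 0.0062; 0.0604 with no filter on low values). In erinacine S it read 33.1, 33.9 and 29.4 TPM at 16 h and 26.8, 123.0 and 135.4 TPM at 48 h. Replicate 1 at 48 h lay below all 16 h libraries and the other 2 lay above them, and the difference was 1.23 (limma adjusted p = 0.055) with it and 1.98 ± 0.15 (limma adjusted p = 2.12e-05) without it. Sema3a, the repellent ligand of Nrp1, fell in DMSO from 19.2 ± 0.610 to 14.6 ± 0.842 TPM (SD, n = 3; log2 difference -0.37, limma adjusted p = 0.021), a call lost when any of 4 of the 6 DMSO libraries was left out. In erinacine S its difference was -0.15 (limma adjusted p = 0.32) with and -0.29 (limma adjusted p = 0.026) without replicate 1 at 48 h.

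Sema7a, a lipid-anchored semaphorin that promotes axon growth through integrins, rose in both. Its DMSO libraries read 89.6, 88.8 and 72.7 TPM at 16 h and 167.4, 170.6 and 144.8 TPM at 48 h, a log2 difference of 0.94 ± 0.14 (limma adjusted p = 0.000603). In erinacine S it went from 86.9 ± 12.3 to 118.0 ± 21.6 TPM (SD, n = 3; log2 difference 0.43, limma adjusted p = 0.038), with replicate 1 at 48 h, 93.1 TPM, below the highest 16 h library. Sema6b, a transmembrane semaphorin that binds A-type plexins, rose from 69.1 ± 16.1 to 119.2 ± 9.10 TPM in DMSO and from 67.9 ± 9.41 to 125.7 ± 6.32 TPM in erinacine S (SD, n = 3). Its log2 differences were 0.80 and 0.89.

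Among the receptors of semaphorins, plexins were called higher for 4 of 8 tested members in DMSO and 3 of 8 in erinacine S, with 0 lower, while Nrp1 was called lower in both. Plxnd1, a receptor for Sema3e and, with a neuropilin, for Sema3c, spans positions 115954811 to 115995005 of chromosome 6 on GRCm38. It read 28.9, 25.96 and 21.6 TPM in DMSO 16 h and 108.4, 91.7 and 101.7 TPM in DMSO 48 h. In erinacine S it read 34.9, 21.5 and 22.8 TPM at 16 h and 118.1, 83.6 and 80.3 TPM at 48 h. Every 48 h library lay above every 16 h library. The log2 differences were 1.94 ± 0.18 (limma adjusted p = 3.75e-05) and 1.81 ± 0.18 (limma adjusted p = 6.92e-05), and the second was 1.63 without erinacine S 48 h replicate 1. Plxna1, which signals for neuropilin-bound semaphorins, rose from 52.5 ± 9.70 to 85.3 ± 4.42 TPM in DMSO (SD, n = 3). Nrp1 read 103.2, 91.0 and 74.6 TPM in DMSO 16 h and 55.5, 56.9 and 65.7 TPM in DMSO 48 h, without overlap, and fell by 0.58 on the log2 scale there and by 0.59 in erinacine S.

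**Figure D3:**
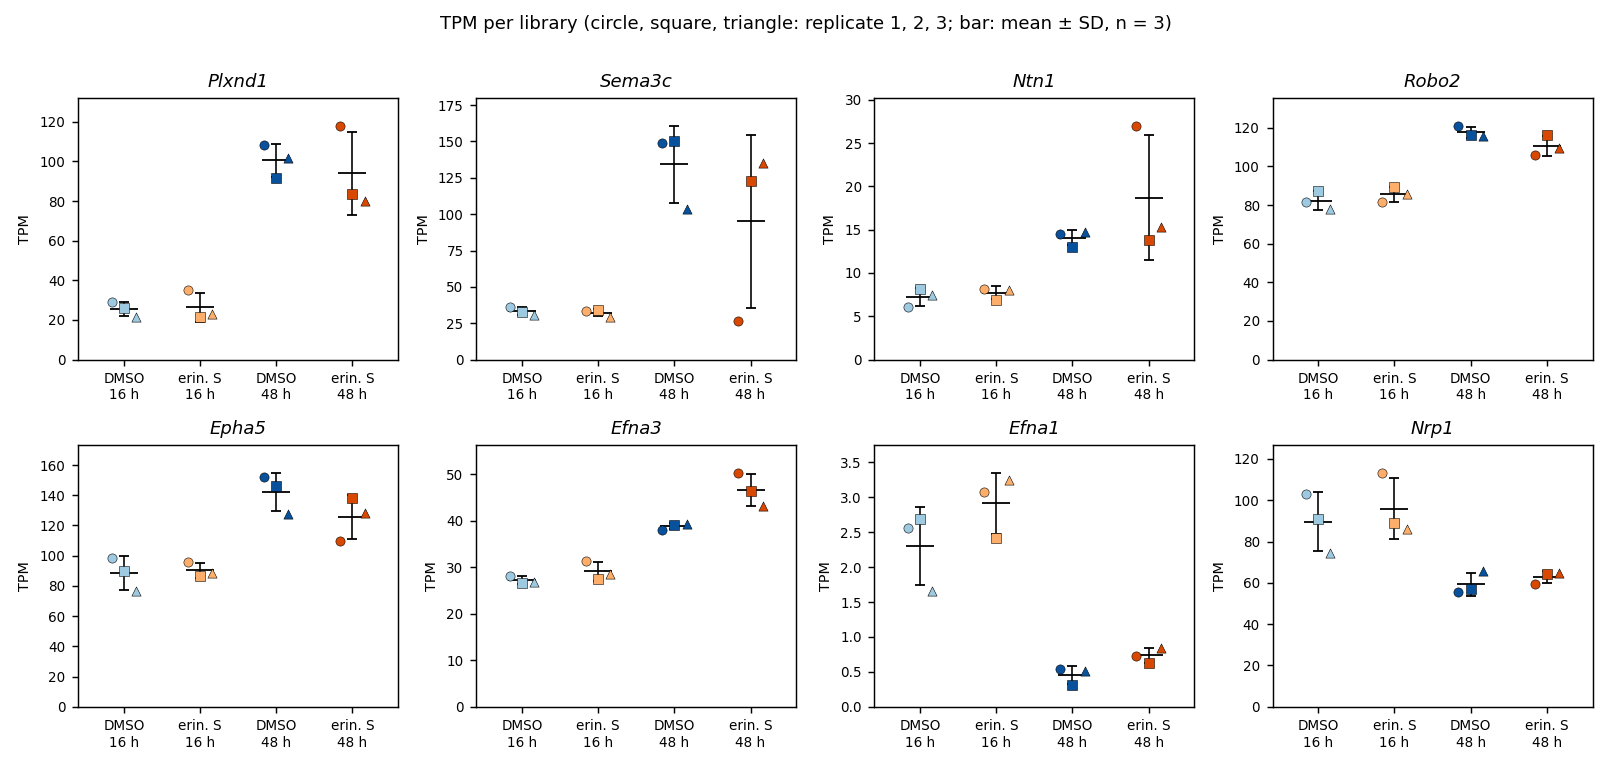
TPM of 8 guidance genes that changed with time; each point is 1 library (circle, square and triangle are replicates 1, 2 and 3), with the group mean and SD (n = 3). Plxnd1 reads 21.5 to 34.9 TPM in the 16 h libraries and 80.3 to 118.1 TPM in the 48 h libraries, and in Sema3c the circle of erinacine S 48 h lies at 26.8 TPM.

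Ephrin-A ligands split. In DMSO 1 of 5 rose and 2 fell, in erinacine S 1 rose and 1 fell. Efna3 read 28.2, 26.6 and 26.8 TPM in DMSO 16 h and 38.1, 39.0 and 39.3 TPM in DMSO 48 h. The groups did not overlap, with a log2 difference of 0.50 ± 0.07 (limma adjusted p = 0.000511), and 0.66 in erinacine S. Efna1, whose gene lies 32.8 kb from Efna3 on chromosome 3, went the other way: 2.56, 2.69 and 1.66 TPM in DMSO 16 h and 0.545, 0.309 and 0.514 TPM in DMSO 48 h. Its log2 difference was -1.17 in both DMSO and erinacine S (limma adjusted p = 0.000315 and 0.000368). The size depends on the pseudocount: with 0.1 it was -2.11 and -1.85, and with 5 it was -0.42 and -0.46. With every 48 h library under 1 TPM, Efna1 passed the filter on low values through its 16 h libraries. Ephrin-B ligands gave 0 of 3 calls in DMSO and 1 of 3 in erinacine S, Efnb3, whose difference was 0.50 with and 0.33 without replicate 1 at 48 h.

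Among Eph receptors most calls were higher at 48 h. Of 7 tested EphA receptors 5 were higher in DMSO and 4 in erinacine S, with 0 lower; of 5 EphB receptors 3 were higher in each and 1, Ephb4, was lower in erinacine S. Epha5, a receptor of ephrin-A ligands, rose from 88.4 ± 11.1 to 142.0 ± 12.7 TPM in DMSO (SD, n = 3; log2 difference 0.68, limma adjusted p = 0.000768). Epha7 rose by 0.58 in DMSO (limma adjusted p = 0.000499) and by 0.86 in erinacine S (limma adjusted p = 5.01e-05). The lower Epha10, which lacks kinase activity, went from 1.95 ± 0.455 to 4.55 ± 0.782 TPM in DMSO and from 2.60 ± 0.617 to 6.51 ± 2.99 TPM in erinacine S (SD, n = 3). With a pseudocount of 5 its differences were 0.46 and 0.57. Its difference in erinacine S was 1.01 with and 0.70 without replicate 1 at 48 h, and that of Epha8 was 0.93 and 0.60. In DMSO the Epha10 difference was 0.91 (limma adjusted p = 0.013), and 0.80 (limma adjusted p = 0.056) without DMSO 48 h replicate 1. The Epha8 call in DMSO (0.73, limma adjusted p = 0.031) was lost when any of 5 of the 6 DMSO libraries was left out. Ephb1 was called higher in erinacine S with all libraries (0.29, limma adjusted p = 0.0497) and not without that replicate (0.19, limma adjusted p = 0.17). The Ephb4 difference in erinacine S, -0.59 (limma adjusted p = 0.025), was -0.37 (limma adjusted p = 0.063) without that replicate, and the call was also lost without erinacine S 16 h replicate 1 or 2.

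Slits did not give a call in either comparison (0 of 3 each). Robo2, a Slit receptor, read 81.3, 87.4 and 77.9 TPM in DMSO 16 h and 121.0, 116.4 and 115.7 TPM in DMSO 48 h, a log2 difference of 0.51 ± 0.06 (limma adjusted p = 0.000169), and 0.36 in erinacine S. Its neighbour Robo1 on chromosome 16, 846 kb away, was not called in either. Robo3 fell by 0.69 in erinacine S (limma adjusted p = 0.036; by 1.15 with a pseudocount of 0.1 and by 0.26 with 5), a call lost when either erinacine S 16 h replicate 2 or 3, or any of the erinacine S 48 h libraries, was left out. Robo3 averaged 1.99 TPM in DMSO and 1.90 TPM in erinacine S at 16 h, and 1.10 and 0.759 TPM at 48 h. Its erinacine S 48 h libraries were all under 1 TPM, so its 16 h libraries helped it past the filter on low values. Unlike those of Efna1, its DMSO 48 h libraries read 1.01 to 1.21 TPM. Ntn1, the ligand of Dcc, read 6.05, 8.14 and 7.505 TPM in DMSO 16 h and 14.5, 13.1 and 14.8 TPM in DMSO 48 h. Its log2 difference was 0.88 ± 0.20 (limma adjusted p = 0.0059) in DMSO; in erinacine S it was 1.13 with and 0.84 without replicate 1 at 48 h. Ntn4 was called in erinacine S only without that replicate (0.56, limma adjusted p = 0.028; 0.32 and 0.23 with it). Among 7 tested netrin receptors 1, Unc5d, rose in DMSO and 0 changed in erinacine S.

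The question the study set, whether erinacine S changes expression against its solvent, gave fewer differences. At 48 h 0 of the 63 members passed, against 21 of the 15623 tested genes (0.134%). An unadjusted limma p under 0.05 was found for 7 of the 63, against 1400 of the 15623 (8.96%). Groups did not overlap for 13 members, which is 20.6% against 19.3% of all tested genes. Of the 63, 10 were higher without overlap, against 1646 of the 15623 tested genes (10.5%), and 3 lower, against 1366 (8.74%). The median log2 difference was 0.02 over the members and 0.01 over all tested genes, and 0.013 and -0.003 without erinacine S 48 h replicate 1. Without erinacine S 48 h replicate 1, 0.73% of all tested genes were called and 1 member, Sema4a. With library weights 9 members were called, and 10.2% of all tested genes. The part of the lower microglial markers in the differences at 48 h was not tested.

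Sema4a, a transmembrane semaphorin that binds B-type plexins and Plxnd1, had the smallest p among the members. It lies at positions 88435959 to 88461182 of chromosome 3. At 48 h it read 29.2, 33.8 and 32.4 TPM in DMSO and 60.7, 49.5 and 45.3 TPM in erinacine S. The groups did not overlap. The log2 difference was 0.68 ± 0.12 (SE; 95% confidence interval 0.43 to 0.94), and its limma adjusted p of 0.056 missed the threshold. Without erinacine S 48 h replicate 1 it was 0.56 (limma adjusted p = 0.045), and over the alternatives tried the adjusted p ranged from 0.00033 to 0.291.

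Epha7 read 23.0, 21.7 and 23.3 TPM in DMSO 48 h and 33.1, 29.3 and 27.2 TPM in erinacine S 48 h, without overlap (log2 difference 0.38, limma adjusted p = 0.14). Efna3 had a log2 difference of 0.26 (limma adjusted p = 0.29), with 38.1 to 39.3 TPM in DMSO and 43.2 to 50.2 TPM in erinacine S. Efnb3, a ligand of EphB receptors, read 117.3, 111.5 and 127.5 TPM in DMSO 48 h and 196.7, 137.9 and 135.9 TPM in erinacine S 48 h, so its mean was raised by replicate 1. Its difference was 0.38 with and 0.21 without that library (limma adjusted p = 0.32 and 0.30). Sema7a was lower in all 3 treated libraries, 93.1, 129.5 and 131.4 TPM, than in the DMSO libraries (log2 difference -0.46, limma adjusted p = 0.32; -0.30 and 0.50 without replicate 1). Sema3a (0.32, and 0.18 without replicate 1) and Sema4g (0.21) were the others with an unadjusted limma p under 0.05. The list depended on replicate 1. Without that library Sema4g was no longer on it. Unc5c (-0.42 without and -0.17 with that library) and Slit2 (-0.38 and -0.24) then were, at limma adjusted p of 0.25 and 0.39. Narrow intervals were seen for Efnb2, whose log2 difference of 0.02 had a 95% confidence interval of -0.14 to 0.18, and Robo2, with -0.09 (-0.23 to 0.05). Without replicate 1 the Efnb2 difference was -0.02.

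**Figure D4:**
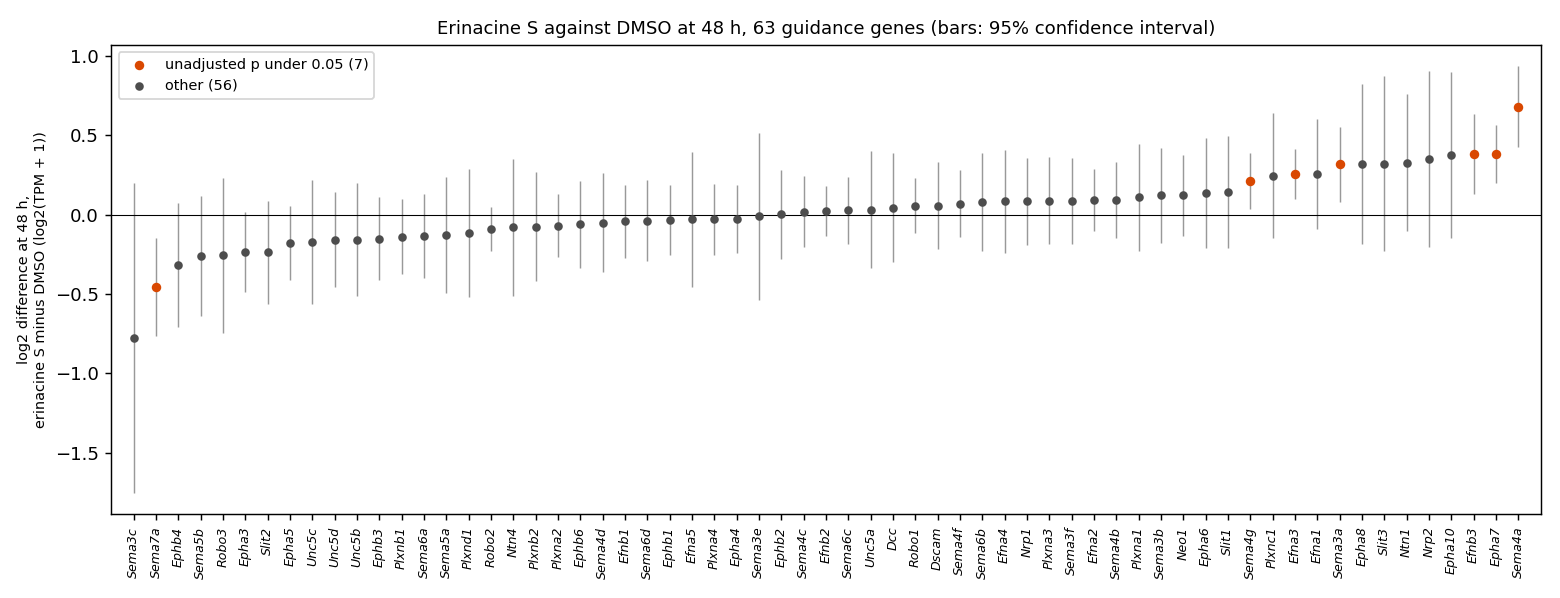
Log2 difference at 48 h (erinacine S minus DMSO, on log2(TPM + 1)) for the 63 tested guidance genes, ordered by size, with 95% confidence intervals; the 7 with an unadjusted p under 0.05 are coloured. Sema4a lies highest, at 0.68, and the interval of Sema3c is the widest.

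**Figure D5:**
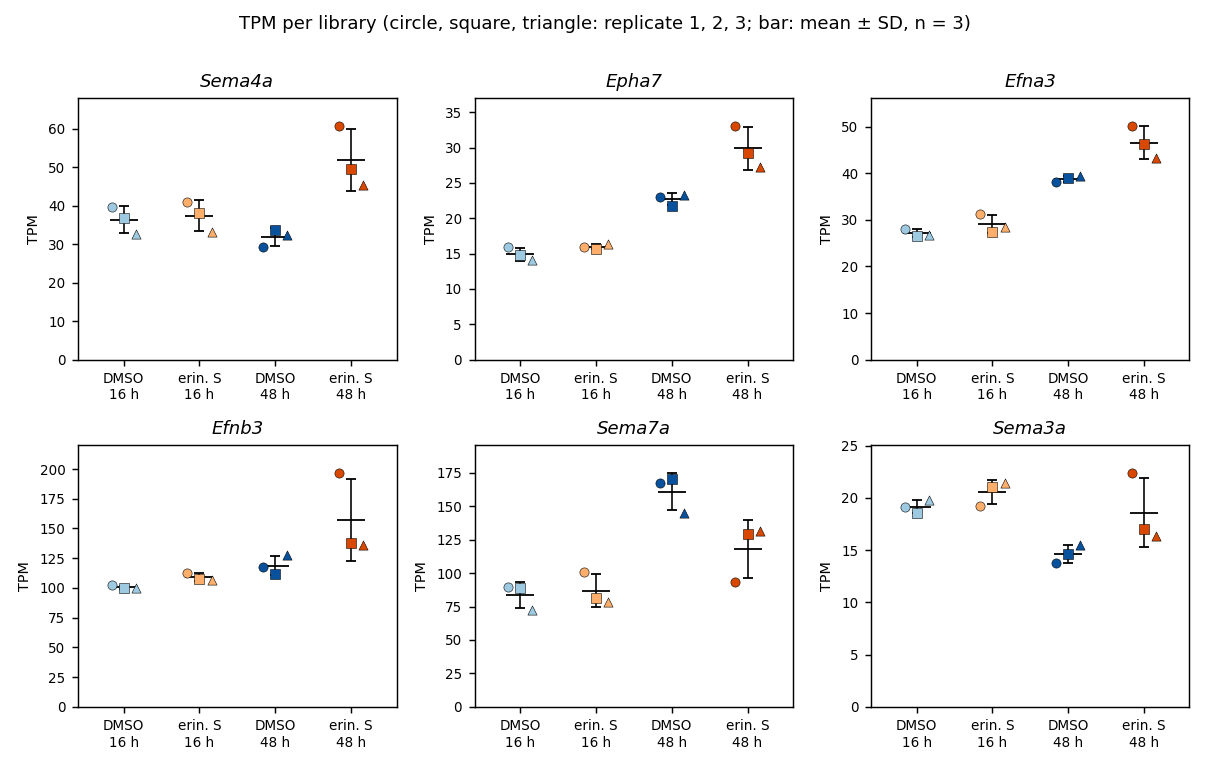
TPM of 6 of the 7 guidance genes with an unadjusted p under 0.05 at 48 h; each point is 1 library (circle, square and triangle are replicates 1, 2 and 3), with the group mean and SD (n = 3). In Sema4a the 48 h erinacine S libraries lie between 45.3 and 60.7 TPM and the 48 h DMSO libraries between 29.2 and 33.8 TPM, and in Efnb3 and Sema3a the 48 h erinacine S circle stands above the other 2 libraries.

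At 16 h 0 members and 0 of all tested genes (0%) passed with limma. Of the 63 members 1, Sema3b, had an unadjusted limma p under 0.05, against 201 of the 15623 tested genes (1.29%). Sema3b is a low secreted semaphorin: it read 1.01, 1.34 and 0.853 TPM in DMSO and 1.51, 1.54 and 1.72 TPM in erinacine S (log2 difference 0.33, limma adjusted p = 1.00; 0.55 with a pseudocount of 0.1 and 0.12 with 5). Groups did not overlap for it and for Efnb3, 2 of 63 members (3.17%, against 4.19% of all tested genes). The differences of Efna1 (0.25), Dcc (0.22) and Robo1 (0.13) followed by p and rested largely on DMSO 16 h replicate 3, without which they were 0.11, 0.02 and 0.06. Differences were above 0 for 48 of the 63 members and for 8388 of the 15623 tested genes, with a median of 0.05 against 0.01 over all tested genes. The summed level of the 70 members was 3125, 3287 and 2597 TPM in DMSO 16 h and 3360, 2998 and 2897 TPM in erinacine S 16 h, so DMSO replicate 3 was lowest.

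Whether the erinacine S effect differed between the times was tested as an interaction. No gene of the 15623 passed with limma (0%), and 3 of the 63 members had an unadjusted p under 0.05, against 432 of the 15623 tested genes (2.77%). They were Sema4a (0.64 ± 0.17), Sema7a (-0.51 ± 0.20) and Epha7 (0.29 ± 0.12), all with an adjusted p of 1.00, and Epha3 came next with -0.29 (-0.15 without erinacine S 48 h replicate 1).

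Other genes of guidance signalling are read against the same shares of all tested genes: 32.7% called with time in DMSO, 30.6% in erinacine S, and 0.134% called and 8.96% at an unadjusted p under 0.05 for the treatment at 48 h. Of 24 further cues, receptors and co-receptors, 10 changed with time in DMSO (8 higher, 2 lower) and 9 in erinacine S (8 higher, 1 lower), and 0 between erinacine S and DMSO at either time, where limma gave an unadjusted p under 0.05 for 0 at 16 h and 3 at 48 h. Cntn1, an adhesion molecule of axons, rose from 20.9 ± 2.63 to 70.3 ± 1.505 TPM in DMSO (SD, n = 3), Nell2, a ligand of Robo3, rose by 0.72 on the log2 scale, and Rgmb, a ligand of Neo1, by 0.57. Draxin, a repellent that binds netrin-1 and Dcc, fell by 0.76 and Flrt3, a ligand of Unc5 receptors, by 0.41. In erinacine S Met, a receptor kinase, rose by 1.22. A list of 54 effectors, intracellular but for the membrane protease Adam10, gave 27 changed genes in DMSO (23 higher, 4 lower). It gave 25 in erinacine S (23 higher, 2 lower) and 0 with treatment. Adam10 was among those higher in both. For the treatment an unadjusted limma p under 0.05 was found for 0 at 16 h and 2 at 48 h. Ngef, an exchange factor downstream of EphA receptors, rose by 1.54 in DMSO, the GTPase Rnd1, which binds plexins, by 1.21 and Dpysl2, which carries Sema3a signals to microtubules, by 0.62. Mical1, an oxidase that disassembles actin downstream of plexins, fell by 1.43, Rock1 by 0.36 and Cdk5 by 0.25.

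The guidance genes were long. The tested members spanned a median of 107 kb in the deposited coordinates, against 24.9 kb for all tested protein-coding genes. Members called higher at 48 h in DMSO spanned a median of 141 kb, those called lower 77.6 kb and those not called 92.5 kb. Over all tested genes, including those not protein-coding, the median was 18.2 kb. It was 37.9 kb for those called higher, 15.2 kb for those called lower and 16.2 kb for those not called. The part of gene length in the counts above was not tested.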

How the data were processed

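Total RNA of 12 libraries was sequenced with a strand-specific kit, per the labels' protocols. The submitters' processing notes name bcl2fastq 2.20, Trimmomatic 0.36, FastQC, HISAT2, SAMtools, StringTie 2.1.3 and the build GRCm38.p5. Not given in the sources used here are their order and settings, the annotation release and the strand setting. The deposited values are TPM per gene, which keep no read depth, so counting precision is unknown and the error given is the spread between libraries.

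Groups and replicate numbers came from the sample titles. The test was that of limma 3.58.1 (R 4.3.3) on log2(TPM + 1), in a single fit with a mean for each of the 4 groups and a variance trend, two-sided, adjusted by Benjamini-Hochberg across the 15623 genes with a mean of at least 1 TPM. No p was adjusted over the guidance genes alone. The script was tested on simulated data. The families and so the members, the lists of other guidance genes and markers and the alternatives were chosen with earlier results of these data known. Statistics are given for the members with the largest changes among those called and the 4 with the smallest p in each comparison, and for the other guidance genes with the 3 smallest p in each direction. Epha5 for time and Sema7a, Sema3a, Sema4g, Unc5c, Slit2, Efnb2 and Robo2 for erinacine S at 48 h were chosen after their values were seen. So were values of a member carried over to a second comparison and the promoters printed. Replicates of a group correlated at 0.98 to 0.995 across genes. After subtracting group means, 16 h libraries of equal number had correlations of 0.48, 0.185 and 0.51, so the numbers, which come from the titles, pair the libraries there. Alternatives were other pseudocounts, filters and scalings, the replicate block, robust variances, library weights, only the libraries compared and each library left out.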

Additional observations from a re-analysis of the deposited data

How the results depend on the processing

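Over 5 comparisons and their alternatives no difference changed sign among the members with the largest called changes or the 4 smallest p. Signs of other values were not followed in this way, and the small Efnb2 difference at 48 h did change sign. Called members numbered 26 for time in DMSO and 24 for time in erinacine S; with no filter on low values they were 16 and 12 (7.27% and 6.65% of all genes), and library weights gave 42 in erinacine S (59.8% of all genes). Leaving out in turn each of the 6 libraries compared gave 17 to 28 and 17 to 26. For erinacine S against DMSO at 48 h, 0 became 1, Sema4a, with median-ratio scaling, quantile normalization or TPM without mitochondrially encoded genes, and 9 with library weights (10.2% of all genes); leaving out each library compared gave 0 to 1. At 16 h and for the interaction it was 0 under every alternative run. Where these counts moved the cause was not tested. With the replicate block across the 4 groups the counts were 25 for time in DMSO, 25 for time in erinacine S and 0 for the other comparisons, and with the replicate block within each time 0, so the pairing changed no other call count. At 48 h same-numbered libraries correlated at -0.0219, 0.107 and -0.192, so no pairing by number was seen there. Erinacine S 48 h replicate 1 stood apart and weighs on these values, so they cannot show that pairing was absent. Of the values for single named members, 31 lost and 8 gained their call under an alternative and 632 did neither. TPM keep no depth, so how far low genes such as Efna1 and Robo3 are limited by counting is unknown.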
